A study of Mus musculus with 6 samples.

Results

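Astrocytes release proteins that act on the synapses of the neurons around them, and 10 genes for such proteins were followed here in cells sorted as astrocytes from the mouse olfactory bulb (OB), from control mice and from mice with the transcription factor Sox9 knocked out in astrocytes. They are the hevin gene Sparcl1 and its relative Sparc, the thrombospondins Thbs1, Thbs2, Thbs3 and Thbs4, the glypicans Gpc4, Gpc5 and Gpc6, and the chordin-like gene Chrdl1. The genes were picked by symbol, with earlier results of these data known. All 10 were found among the 24421 genes listed for each library, and all 10 were among the 18413 genes that averaged 1 normalized count or more, which were the genes tested.

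As background, thrombospondins are large calcium-binding glycoproteins that promote the formation of excitatory synapses, for which the neuronal calcium channel subunit α2δ-1 (Cacna2d1) is a known receptor. Hevin binds adhesion proteins of the synapse, among them the postsynaptic neuroligin-1, and the related protein SPARC antagonizes it. Glypicans are heparan sulfate proteoglycans that are anchored to the membrane by a lipid and can be shed. Gpc4 and Gpc6 from astrocytes recruit AMPA-type glutamate receptors to synapses, and Chrdl1, a secreted protein that also binds bone morphogenetic proteins (BMPs), brings in the GluA2 subunit as synapses mature. These proteins are best known from cultured retinal neurons and from cortex.

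RNA was measured by RNA-seq in cells sorted from 3 control and 3 Sox9 KO mice, all adult males, with 1 library per mouse. Control mice were wild-type C57BL/6J, which the study's methods call Sox9+/+, and KO mice were Sox9fl/fl, a floxed allele with LoxP sites around part of the gene. The labels give the strain C57BL/6 for every sample. Both groups carried the same virus, AAV-GFAP-iCre-P2a-TurboRFP, injected into the olfactory bulbs, so that the GFAP promoter, which is active in astrocytes, drove the recombinase Cre and the red fluorescent protein TurboRFP in control and KO alike. Sorting of the TurboRFP-positive cells followed 4 weeks later, and each library was made from 10 ng of total RNA. The sort was thus set for TurboRFP, and the study's methods name no other astrocyte marker for it.

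The deposited values were counts of reads, each library scaled by a single size factor, and are called normalized counts here. Where 3 values of a group are listed, they follow the order of its replicates. Between 18242129 and 86906527 reads per library fell on genes, and 1 read was worth between 0.395 and 1.58 normalized counts. Sox9 itself had 5185, 6562 and 4921 normalized counts in the control libraries against 52.6, 64.3 and 57.7 in the KO libraries. On the log2 scale the fold change (KO over control, as for all fold changes here) was -6.54 with a standard error of 0.15 (adjusted p = 2.47e-09), where adjusted p-values throughout are from limma with Benjamini-Hochberg adjustment over all genes tested. Markers of cell types differed between the groups as well. All 12 astrocyte markers were called lower in KO, with a summed level of 560318 to 620326 normalized counts in the control libraries and 65806 to 77582 in the KO libraries. Of 14 microglia and macrophage markers, 13 were called higher and 1 was called lower, with a summed level of 200078 to 230380 in control and 798656 to 949740 in KO. No marker of either list was at 0 in all libraries. In the KO libraries the microglia and macrophage markers thus summed to far more than the astrocyte markers, which goes against the label of these samples as olfactory bulb astrocytes. The study states that purity was established from known cell-type markers in the RNA-seq, not by a second check of the sorted cells. The purity of the sort was not tested further here. In bulk samples such as these, fewer cells of a type and less RNA per cell cannot be told apart.

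Of the 10 genes, 8 were lower in Sox9 KO, 1 (Thbs1) was higher and 1 (Thbs4) did not pass the test. The call required an adjusted p under 0.05 and a change of at least 1.5-fold. Over all genes tested, 28.8% were called lower and 22.2% higher by the same criteria, a split of calls with 56.4% downward. With libraries scaled to the same total the downward share was 67.8%, and after quantile normalization it was 43.2%. In the 8 lower genes every KO library lay below every control library, which was also true of 34.7% of all genes tested. In Thbs1 every KO library lay above every control library, as in 32.4% of all genes tested. The median log2 fold change of the 10 genes was -2.35, beside -0.07 over all genes tested. Falls of at least 4-fold were seen in 6 of the genes and of at least 8-fold in 4 of them, Gpc5, Chrdl1, Sparcl1 and Thbs3.

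**Figure D1:**
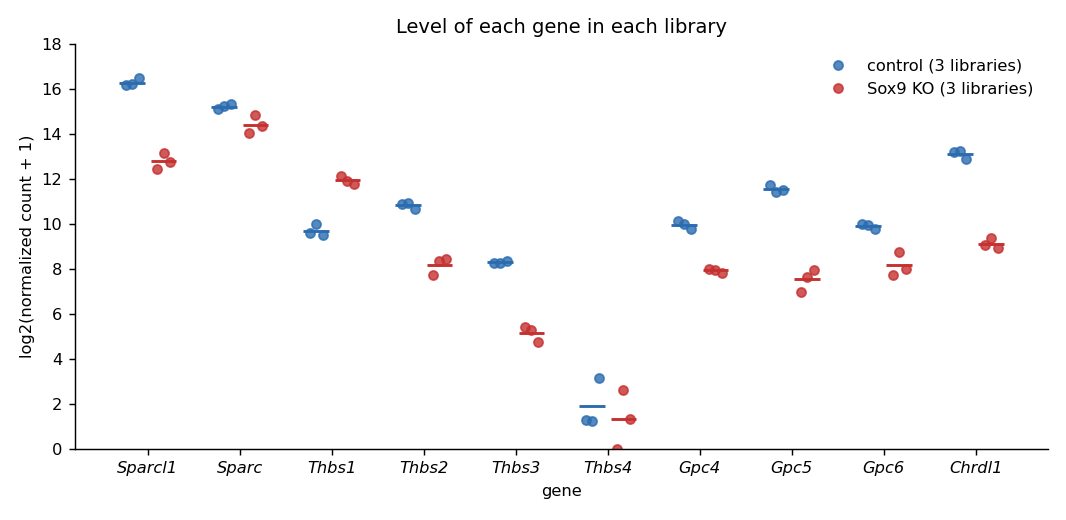
Level of each gene in each library, as log2(normalized count + 1) on the vertical axis, with the 10 genes along the horizontal axis, 3 control libraries in blue and 3 Sox9 KO libraries in red. Each point is 1 library and each bar is the group mean, and Thbs1 is the gene whose red points lie above the blue ones, while those of Thbs4 overlap near 0.

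Sparcl1 was one of the most abundant RNAs of the control cells and fell 11.1-fold in KO. The gene lies on chromosome 5 of GRCm38 (mm10), from 104079111 to 104113733 on the minus strand. Its level was 72954, 76162 and 90500 normalized counts in the control libraries. In the KO libraries it was 5522, 9176 and 6982. The highest KO library thus remained far below the lowest control library. The means were 79872 ± 9343 in control against 7226 ± 1839 in KO (SD, n = 3 each), and the log2 fold change was -3.49 with a standard error of 0.17 and a 95% interval from -3.87 to -3.12 (limma, adjusted p = 6.19e-08). Only 8 genes had a higher mean normalized count in control, against 737 in KO.

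Sparc, the gene for the antagonist of hevin, was lower by a much smaller factor of 1.69. It lies on chromosome 11, from 55394500 to 55423183 on the minus strand. The control libraries held 34900, 38261 and 41116 normalized counts and the KO libraries 16745, 29543 and 21178, so that the groups did not overlap although KO replicate 2 came near the lowest control. The log2 fold change was -0.80 with a standard error of 0.18 and a 95% interval from -1.19 to -0.40 (limma, adjusted p = 0.00284). This call was lost without the filter on low values, where limma's variance trend was fitted over all 24421 genes (adjusted p = 0.0544).

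The balance of hevin to SPARC messages turned over between the groups. Within a library the ratio of 2 genes does not depend on the size factor. The ratio of Sparcl1 to Sparc in normalized counts per kb of transcript was 1.74, 1.66 and 1.83 in the control libraries. In the KO libraries it was 0.275, 0.259 and 0.275. The groups were far apart, and each was tight. This ratio is of all RNA in the sorted cells, and what each cell type contributes to it was not tested. Per kb of transcript, Sparcl1 held the first place of the 10 genes in control with 28950 ± 3386 normalized counts per kb (SD, n = 3), and Sparc the second with 16562 ± 1353. In KO the order was the reverse, with 9778 ± 2826 per kb for Sparc and 2619 ± 667 for Sparcl1.

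Thbs1 went against the 8 genes that fell. This thrombospondin gene lies on chromosome 2, from 118111876 to 118127133 on the plus strand, and besides its action on synapses its protein activates latent TGF-β and is made by platelets and macrophages. Its level was 773, 1031 and 727 normalized counts in the control libraries. In the KO libraries it was 4514, 3864 and 3540. Every KO library stood far above every control library, with means of 844 ± 164 in control against 3973 ± 496 in KO (SD, n = 3 each). Thbs1 was 4.71-fold higher in KO, with a log2 fold change of 2.24, a standard error of 0.14 and a 95% interval from 1.92 to 2.57 (limma, adjusted p = 4.17e-07). The microglia and macrophage markers moved with it, at a median log2 fold change of 1.98, and the markers' part in the rise of Thbs1 was not tested. The 6 platelet and megakaryocyte markers had a median of -0.15 (0.52 after quantile normalization), with 2 called lower and none higher, and a summed level of 765 to 1504 normalized counts in control and 400 to 606 in KO.

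Thbs2, the other trimeric thrombospondin of the family, fell 6.25-fold. It lies on chromosome 17, from 14665500 to 14694235 on the minus strand. The control libraries held 1894, 1952 and 1628 normalized counts, and the KO libraries 211, 322 and 342. The groups were widely separated, with a log2 fold change of -2.67 and a standard error of 0.18 (limma, adjusted p = 5.57e-07). Thbs3, of the pentameric subgroup, fell 8.87-fold and lies on chromosome 3, from 89215180 to 89226837 on the plus strand. It had 305, 305 and 325 normalized counts in the control libraries, the most even values of the 10 genes, and 41.7, 37.9 and 25.8 in the KO libraries. The log2 fold change was -3.14 with a standard error of 0.25 (limma, adjusted p = 2.01e-06). Exons of Mtx1 on the opposite strand share 318 bp with Thbs3, or 6.59% of its exonic bases. The sources used here do not say whether the counting used the strand, and Mtx1 had a mean of 433 normalized counts in control and 512 in KO.

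Thbs4 was barely detected. It lies on chromosome 13, from 92751590 to 92794818 on the minus strand, and was counted with 1, 2 and 5 reads in the control libraries against 0, 13 and 1 reads in the KO libraries. These correspond to 1.46, 1.38 and 7.88 normalized counts in control against 0, 5.13 and 1.52 in KO. The groups overlapped, and with a log2 fold change of -0.58 the 95% interval ran from -2.54 to 1.37 (limma, adjusted p = 0.586). A difference was not detectable at this depth, and the interval leaves room for a change of more than 4-fold downward and of more than 2-fold upward.

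The makeup of the thrombospondin messages was therefore different, while their sum was of the same order. Summed over the 4 genes, the level was 530, 583 and 483 normalized counts per kb in the control libraries against 818, 726 and 670 in the KO libraries. Thbs2 made up 60.7%, 56.8% and 57.1% of the sum in the control libraries and 4.38%, 7.52% and 8.65% in the KO libraries. Thbs1 made up 25%, 30.2% and 25.7% in control and 94.4%, 91.0% and 90.3% in KO. The share of Thbs3 was 14.6% ± 1.87 in control against 1.17% ± 0.19 in KO (SD, n = 3 each). The ratio of Thbs1 to Thbs2 in normalized counts per kb, free of any size factor, was 0.411, 0.532 and 0.450 in control. It was 21.5, 12.1 and 10.4 in KO. Thbs2 and Thbs3 stayed closer to each other. Their ratio per kb overlapped between the groups, at 3.43 to 4.38 in control and 3.47 to 9.06 in KO.

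**Figure D2:**
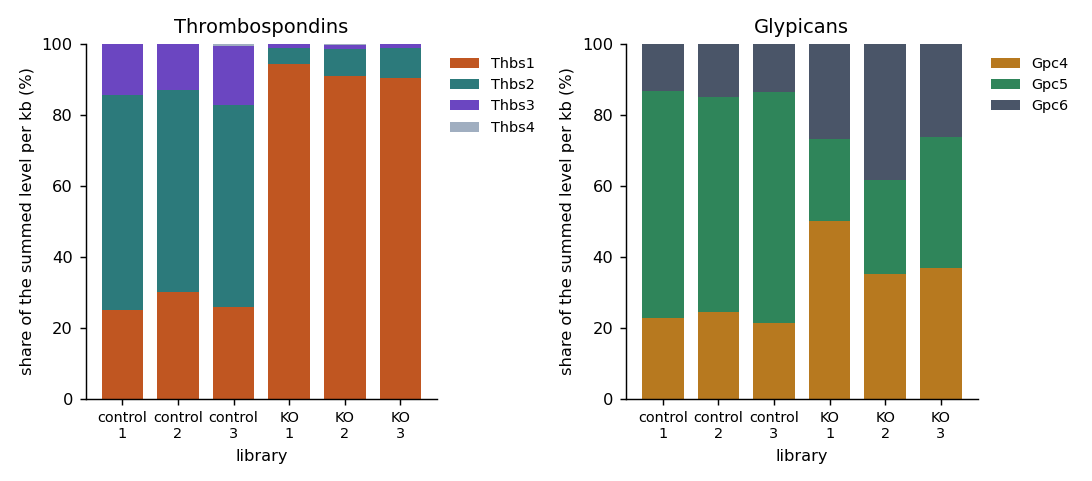
Share of each gene, in percent on the vertical axis, in the summed level per kb of the thrombospondins (left) and of the glypicans (right), with 1 stacked bar for each control and each KO library. Thbs1 takes 25% to 30.2% of the thrombospondin sum in control and 90.3% to 94.4% in KO, and Gpc5 takes 60.8% to 65.2% of the glypican sum in control and 23.2% to 37.0% in KO.

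All 3 glypicans fell, and by different factors. Gpc5, the most abundant of them per kb in control, fell 15.7-fold. It spans 1433 kb of chromosome 14, from 115092215 to 116525179 on the plus strand. Its level was 3374, 2746 and 2867 normalized counts in the control libraries against 126, 201 and 245 in the KO libraries. The 2 groups lay far apart, with a log2 fold change of -4.01, a standard error of 0.21 and a 95% interval from -4.49 to -3.54 (limma, adjusted p = 1.14e-07).

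Gpc6 follows Gpc5 on the same strand, 400 kb further on, from 116925315 to 117976544 of chromosome 14. It had 1014, 982 and 865 normalized counts in the control libraries and 212, 427 and 252 in the KO libraries. The groups did not overlap, although KO replicate 2 was well above the other KO libraries. Gpc6 was lower 3.21-fold, with a log2 fold change of -1.74, a standard error of 0.23 and a 95% interval from -2.25 to -1.24 (limma, adjusted p = 7.11e-05). The intervals of these neighbouring genes, Gpc5 and Gpc6, did not meet.

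Gpc4 lies on chromosome X, from 52053021 to 52165252 on the minus strand, and fell 4.13-fold. Its control libraries held 1119, 1025 and 878 normalized counts and its KO libraries 255, 249 and 228. The KO libraries were close together and far below the controls, with a log2 fold change of -2.04 and a standard error of 0.14 (limma, adjusted p = 5.66e-07). The next gene on the X chromosome, 107 kb from Gpc4, is the glypican Gpc3, which had 53.4 ± 5.05 normalized counts in control against 13.8 ± 5.90 in KO (SD, n = 3 each) and was also called lower (-1.96 on the log2 scale, limma, adjusted p = 0.00213).

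With its larger fall, Gpc5 held a smaller share of the glypican messages in KO. The summed level of the 3 genes was 1666 ± 166 normalized counts per kb in control against 231 ± 37.9 in KO (SD, n = 3 each). Gpc5 made up 63.4% ± 2.26 of it in control and 28.9% ± 7.23 in KO, while the share of Gpc4 was 22.8% ± 1.47 in control against 40.7% ± 8.23 in KO. The ratio of Gpc5 to Gpc6 in normalized counts per kb was 4.86, 4.09 and 4.84 in the control libraries. In the KO libraries it was 0.867, 0.688 and 1.42. That ratio did not overlap between the groups. The order of the 3 genes within KO is less certain, since Gpc5 and Gpc4 were level in KO replicate 3 (37.0% and 36.9% of the sum), and since Gpc5 at 67.2 ± 21.1 and Gpc6 at 71.7 ± 27.5 normalized counts per kb did not differ beyond their spread.

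Chrdl1 had the largest drop by ratio, 16.0-fold. It lies on chromosome X, from 143285674 to 143394262 on the minus strand. The level was 9503, 9797 and 7508 normalized counts in the control libraries. It came to 538, 656 and 483 in the KO libraries. The groups were separated by more than 10 times, with means of 8936 ± 1246 in control against 559 ± 88.6 in KO (SD, n = 3 each). The log2 fold change was -4.0 with a standard error of 0.14 and a 95% interval from -4.31 to -3.69 (limma, adjusted p = 1.15e-08). The interval overlapped those of Gpc5, Sparcl1 and, at its edge, Thbs3, so that the order of change among these genes is not clear.

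**Figure D3:**
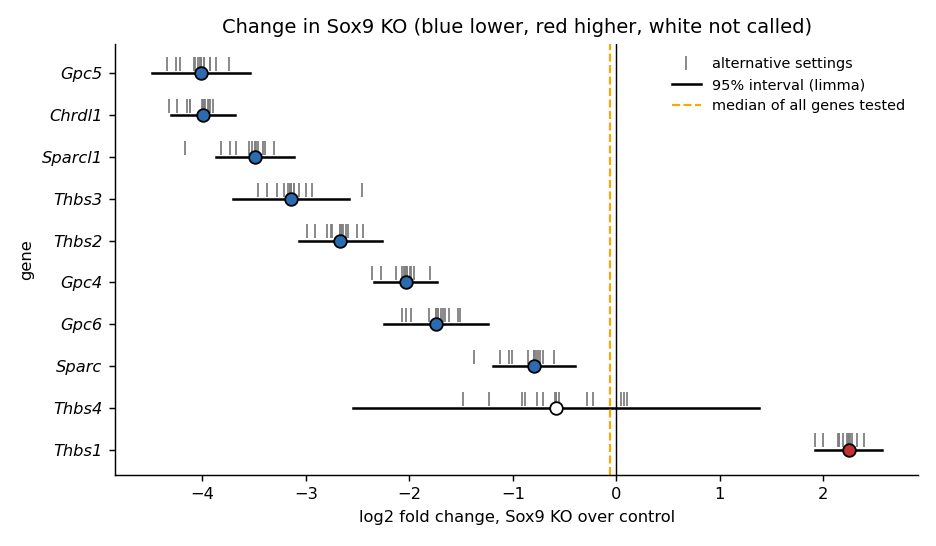
Log2 fold change of Sox9 KO over control on the horizontal axis for each of the 10 genes, with 95% intervals from limma as black lines and the values under the alternative settings as grey ticks. The points of 8 genes are blue (called lower), Thbs1 is red (called higher) at 2.24, Thbs4 is white (not called), and the dashed line marks the median of all genes tested at -0.07.

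Per kb of transcript, Chrdl1 held the third place in control with 2182 ± 304 normalized counts per kb (SD, n = 3), followed by Gpc5 with 1056 ± 118, Gpc4 with 380 ± 45.9 and Thbs2 with 310 ± 29.3. Below these came Gpc6 with 230 ± 18.9, Thbs1 with 144 ± 28.0, Thbs3 with 77.3 ± 2.80 and Thbs4 with 1.12 ± 1.17. In control, Gpc4 and Thbs2 overlapped within 1 SD, and no other neighbours in this order did. In KO, Thbs1 moved from the eighth place to the third, at 679 ± 84.8 normalized counts per kb, behind Sparc and Sparcl1. Chrdl1 with 137 ± 21.6 and Gpc4 with 92.0 ± 5.38 normalized counts per kb came next, and these changed places when the length of all exons joined was used in place of the longest transcript. Gpc4, Gpc6, Gpc5 and Thbs2, the last at 49.5 ± 11.9 normalized counts per kb, each overlapped the next within 1 SD. Sparc alone made up 33.2% of the summed level per kb of the 10 genes in control and 72.4% in KO, and the sum itself was 49891 ± 4217 in control against 13503 ± 3510 in KO (SD, n = 3 each).

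**Figure D4:**
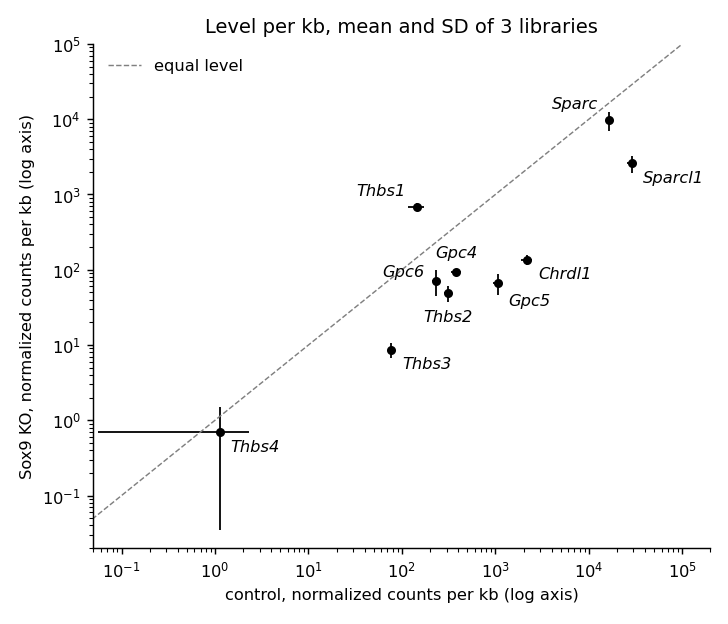
Mean level per kb in control (horizontal, log axis) against Sox9 KO (vertical, log axis) for each of the 10 genes, in normalized counts per kb of the longest transcript, with bars of 1 SD over 3 libraries. Thbs1 lies above the dashed line of equal level, the other genes lie below it, and the lower bars of Thbs4, which would pass 0, end at 5% of its mean.

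The falls were next set beside that of the astrocyte markers in the same libraries. For each library the mean log2(normalized count + 1) of the 12 astrocyte markers was taken from that of the gene, a difference that is nearly free of the size factor. For Sparcl1 this difference was 1.61, 1.68 and 2.03 in the control libraries against 1.64, 2.15 and 1.82 in the KO libraries. Sparcl1 therefore kept its place relative to the astrocyte markers, with a shift of 0.10 on the log2 scale and overlapping groups. Gpc5 (-0.42) and Thbs3 (0.45) also overlapped between the groups. Chrdl1 lay lower relative to these markers in KO by 0.41 on the log2 scale, without overlap, at -1.33, -1.28 and -1.56 in control and -1.72, -1.65 and -2.03 in KO. Relative to the same markers, Thbs2 was higher in KO by 0.92, Gpc4 by 1.56, Gpc6 by 1.85, Sparc by 2.80 and Thbs1 by 5.84 on the log2 scale, all without overlap. The 12 markers themselves differed widely, with log2 fold changes from -5.25 (Fgfr3) to -1.07 (Glul). Those of Sparcl1, Chrdl1, Gpc5, Thbs3, Thbs2, Gpc4 and Gpc6 lay within that range. A shift from the marker mean thus does not set these genes apart from single markers. The changes of Sparc and Thbs1 lay outside the range. Set instead beside the mean of the 14 microglia and macrophage markers, Thbs1 was at -3.67, -3.09 and -3.61 in control and at -2.89, -3.02 and -3.0 in KO, a shift of 0.48. By that measure the groups of Thbs1 did not overlap, but only narrowly, with control replicate 2 at -3.09 and KO replicate 2 at -3.02. Single markers of the 14 had log2 fold changes from -0.67 (Cd163) to 2.70 (Ctss), and that of Thbs1, 2.24, lay within this range. The part that the marker shift has in these values was not tested.

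Markers of other cell types that a sort could hold moved as well, mostly downward. Beside the counts in each list stand the 28.8% of all genes tested that were called lower and the 22.2% called higher. Of 12 neuronal markers 11 were called lower, of 8 oligodendrocyte markers 8, of 7 oligodendrocyte precursor markers 7 and of 7 olfactory ensheathing cell markers 6, with median log2 fold changes of -2.70, -1.67, -3.05 and -1.43. Among 8 mural cell markers 4 were lower (median -1.46, and a summed level of 3605 to 4033 normalized counts in control and 445 to 805 in KO). Fibroblasts, which express Sparc and Thbs2 strongly in many tissues, had 2 of 8 markers lower, close to the share over all genes tested. The median log2 fold change of the fibroblast list was -0.59 (0.17 after quantile normalization). Their summed level, 6102 to 8446 in control and 868 to 1238 in KO, was carried by the 2 lower ones, Igfbp2 (mean 5150 and 148 normalized counts) and Pdgfra (964 and 112), which is also a marker of oligodendrocyte precursors. The 8 endothelial markers, of cells in which Sparc is also abundant, held 5 that were lower and 1 that was higher. Their summed level was 1957 to 3160 normalized counts in control and 1400 to 1890 in KO. The median log2 fold change of this list was -1.05 (-0.20 after quantile normalization). Cldn5, Ly6c1 and Vwf lost their lower calls after quantile normalization, and Flt1 lost its higher call with libraries scaled to the same total. No list had a marker at 0 in all libraries, and what these cells contribute to Sparc and Thbs2 was not tested.

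The promoters were read for sequence shared by the genes that fell together. A RefSeq table of GRCm38.p6 promoters, each 250 bases before to 50 after a start site, held 6 of the 10 genes, Sparc, Thbs2, Thbs3, Thbs4, Gpc4 and Gpc5. Both strands were searched for the SOX core letters ACAAT, the letters ACAAAG that SOX and TCF proteins share, the NFI half-site TTGGCA and the TATA box TATAAA. These occur in 31.0%, 18.7%, 14.1% and 13.6% of all 32851 promoters of the table. ACAAT was in none of the 6 windows. The 250 bases before the start of the 3 genes with any match are shown, in the gene's own direction, with the matches in capitals.
Thbs2, chr17:14694263-14694512, minus strand: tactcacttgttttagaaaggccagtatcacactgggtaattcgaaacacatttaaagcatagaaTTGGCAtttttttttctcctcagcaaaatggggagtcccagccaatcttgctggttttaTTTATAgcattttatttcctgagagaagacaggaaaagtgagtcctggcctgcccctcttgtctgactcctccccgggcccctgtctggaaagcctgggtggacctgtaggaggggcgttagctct
Thbs3, chr3:89214930-89215179, plus strand: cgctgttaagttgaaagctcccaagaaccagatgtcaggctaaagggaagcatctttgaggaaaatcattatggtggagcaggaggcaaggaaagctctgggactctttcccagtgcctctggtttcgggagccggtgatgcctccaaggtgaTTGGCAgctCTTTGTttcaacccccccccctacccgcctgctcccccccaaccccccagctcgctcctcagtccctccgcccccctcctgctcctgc
Gpc5, chr14:115091965-115092214, plus strand: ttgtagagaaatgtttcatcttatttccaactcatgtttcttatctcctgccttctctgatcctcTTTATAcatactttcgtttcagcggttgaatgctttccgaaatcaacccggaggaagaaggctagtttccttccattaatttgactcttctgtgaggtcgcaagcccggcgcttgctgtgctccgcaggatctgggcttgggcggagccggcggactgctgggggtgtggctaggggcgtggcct

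TTGGCA stands at position -185 of Thbs2 and -97 of Thbs3, counted back from the start site, the letters shared by SOX and TCF proteins at -88 of Thbs3 on the opposite strand, and the TATA box letters, also on the opposite strand, at -126 of Thbs2 and -185 of Gpc5. No motif was shared by more than 2 of the 6 genes. The windows also differed in base composition, from 48.3% G and C with 4 CpG in Thbs2 to 72.0% with 24 CpG in Thbs4, beside medians of 52.7% and 7 CpG over the table. A match of letters is a description of the window and does not show that a factor binds there.

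The relatives of the 10 genes mostly moved downward too. For this and the next lists of related genes, the shares over all genes tested were 28.8% called lower and 22.2% called higher. Of 12 such genes (other glypicans, SPARC-family genes, Comp, Chrd and Chrdl2), 9 were called lower, 1 was called higher and 2 did not pass the test, with a median log2 fold change of -1.78. The testican Spock2, a secreted proteoglycan, had 1192 ± 185 normalized counts in control against 418 ± 91.9 in KO (SD, n = 3 each), and fell by 1.52 on the log2 scale. Fstl1 (-2.16), Spock1 (-1.45), Spock3 (-2.81) and Smoc1 (-3.31), a calcium-binding matrix protein of the SPARC family, fell as well. The 1 relative called higher (2 after quantile normalization), named after its values were seen, was Comp, the fifth thrombospondin gene, with 30.7 ± 15.8 normalized counts in control against 87.3 ± 8.67 in KO (log2 fold change 1.58, limma, adjusted p = 0.00418).

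Receptors and partners of these proteins did not all change in the same direction. The values are RNA of the sorted cells, and receptors on the neurons around them were not measured. Neuronal markers fell in the same libraries (median -2.70), and microglia and macrophage markers rose (median 1.98). The part of these markers in the changes of the related genes was not tested. Of 23 such genes, 15 were called lower, 4 higher and 4 did not pass the test, with a median log2 fold change of -2.39. Gria2, which encodes the GluA2 subunit that Chrdl1 brings to synapses, went from 18630 ± 3281 to 1074 ± 29.2 normalized counts (log2 fold change -4.10, limma, adjusted p = 7.32e-09). Ptprf, a receptor phosphatase of the family that binds glypicans, showed the largest fall of the list, from 3453 ± 286 to 134 ± 52.7 (log2 fold change -4.77, limma, adjusted p = 1.63e-07). Cacna2d1, the thrombospondin receptor named above, was chosen after its values were seen and fell from 1211 ± 162 to 235 ± 61.3 normalized counts (log2 fold change -2.39). Chosen likewise, Nlgn1, which encodes neuroligin-1, fell with a log2 fold change of -3.33. The 4 genes that rose, also named after their values were seen, were Cd47 (2.24-fold), Itgb1 (2.15-fold), Itgb3 (2.35-fold) and the scavenger receptor Stab1 (2.52-fold), which takes up SPARC. Lrp1, an endocytic receptor of thrombospondins, had 20618 ± 1127 normalized counts in control against 24536 ± 2360 in KO and Itgav 10545 ± 555 and 10378 ± 606, and neither passed the test.

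Glypicans carry heparan sulfate chains, and the enzymes of these chains moved in both directions. Of 24 enzyme genes, 14 were called lower, 4 higher and 6 did not pass the test, with a median log2 fold change of -1.39. Sulf2, an extracellular enzyme that removes sulfate from the chains, fell from 10241 ± 1022 to 1673 ± 251 normalized counts (log2 fold change -2.62, limma, adjusted p = 5.93e-08). Hs3st5, a sulfotransferase of low level, fell from 59.1 ± 14.6 to 3.73 ± 4.30 (log2 fold change -4.01, limma, adjusted p = 0.00028). The heparanase Hpse, which cuts the chains, rose 33.1-fold, from 187 ± 51.0 to 6186 ± 685 normalized counts (log2 fold change 5.07, limma, adjusted p = 1.78e-08), the largest change of any gene in the 6 lists of related genes. Extl3, which starts the chains, was called higher at 0.61, a call lost under each of 3 other scalings.

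Of the 5 BMP genes, 2 were called lower and 3 did not pass the test. The median log2 fold change was -0.81, and -0.009 after quantile normalization. Bmp7 fell from 1216 ± 175 to 258 ± 119 normalized counts (log2 fold change -2.34), Bmp6 had a log2 fold change of -1.23 that was not called after quantile normalization, and Bmp2 was at 357 ± 144 in control against 360 ± 11.4 in KO. Of the 6 proteases known to cut proteins of these families, 4 were called lower, 1 higher and 1 did not pass the test (median -1.46). Adamts1 (-2.10), Adamts4 (-2.28) and Mmp2 (-1.32) fell, and Adam9 rose by 0.96 on the log2 scale.

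Other astrocyte factors that act on synapses gave 5 lower, 3 higher and 1 not called of 9 genes, with a median log2 fold change of -2.90. The proteoglycan Ncan fell from 64279 ± 4898 to 5097 ± 614 normalized counts and the engulfment receptor Megf10 from 6333 ± 550 to 577 ± 195 (log2 fold changes -3.66 and -3.52). Apoe (0.97) and the engulfment receptor Mertk (1.04), both also expressed by microglia and macrophages, were called higher, and both calls were lost after quantile normalization. Over the 6 lists together, 49 of 79 genes were called lower and 13 higher, with a median log2 fold change of -1.61. Of all genes tested, 28.8% were called lower and 22.2% higher.

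**Figure D5:**
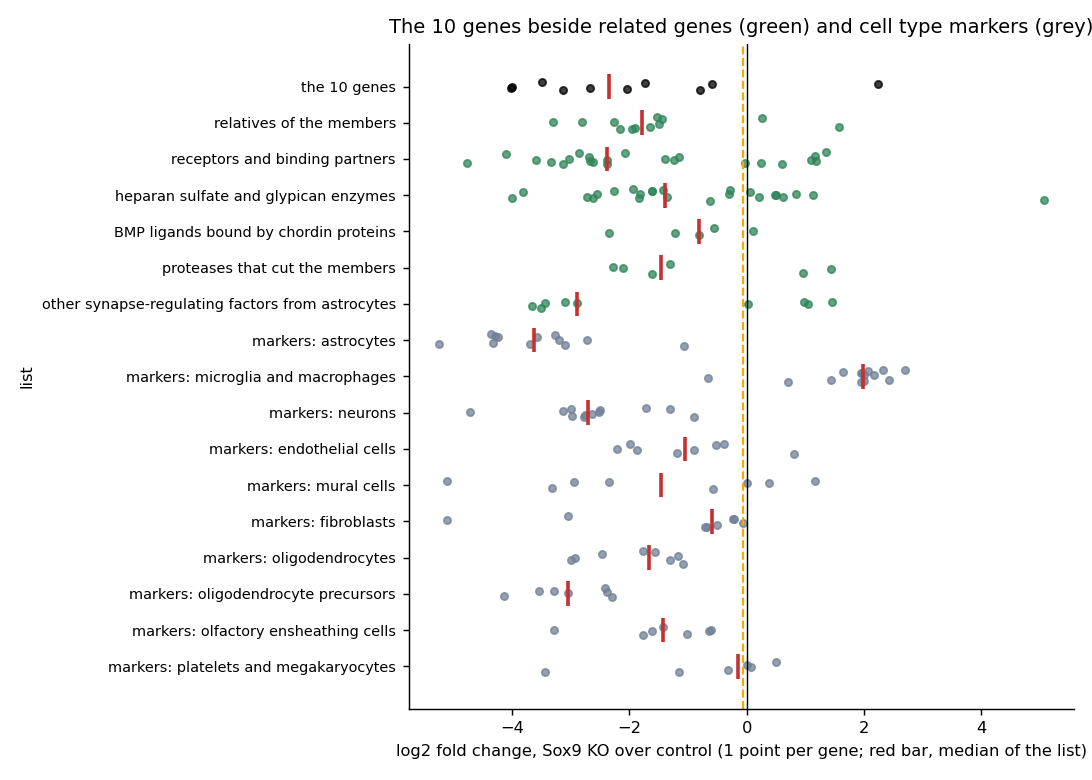
Log2 fold change of Sox9 KO over control on the horizontal axis for the 10 genes (black), the 6 lists of related genes (green) and the 10 lists of cell type markers (grey), with 1 point per gene and the median of each list as a red bar. The medians run from -3.63 for the astrocyte markers to 1.98 for the microglia and macrophage markers, and the 10 genes have a median of -2.35.

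The genes whose pattern over the 6 libraries was most like that of the 3 most abundant of the 10 genes were found by root-mean-square distance on the centred log2 scale, over 11926 other genes with a mean of at least 100 normalized counts. Nearest to Sparcl1 were Meis2 (distance 0.092), Pcdh9 (0.098) and Slc4a8 (0.10). Nearest to Sparc were LOC106740 (0.076), Abca8a (0.078) and Gpr22 (0.083), and nearest to Chrdl1 were Fzd2 (0.086), Apba2 (0.087) and Aass (0.11). These distances describe the same 6 libraries that gave the fold changes, and Sparcl1 and Chrdl1 shared none of their 3 nearest genes.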

How the data were processed

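RNA-seq of sorted OB cells from 3 control and 3 KO mice was used. Per the labels and the study's methods, the authors mapped reads to mm10 with STAR 2.5.0a, counted them per gene and normalized with DESeq2 1.20.0. The deposited signal values are named RPM, but in every library 100% of them were whole multiples of 1 step within 0.01 read, which makes them counts of reads over a single size factor for the library. For the gene annotation and the strand setting the sources used here give nothing.

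Genes with a mean of at least 1 (18413) entered a limma fit (version 3.58.1, R 4.3.3) of log2(normalized count + 1), with a variance trend, no replicate block and two-sided p-values. Fold changes on this scale understate those of low genes, while fold ratios in the text are ratios of group means. Coordinates and transcript lengths are from GENCODE M21 (GRCm38), in place of the RefSeq annotation that had been planned, and levels per kb use the longest transcript. Promoters are from RefSeq. edgeR 4.0.16 and DESeq2 1.42.0 on the recovered reads, other scalings, pseudocounts and filters, a replicate block and leaving out each library were tried, and the limma, edgeR and DESeq2 tests were checked on simulated data. The replicate numbers do not pair the libraries.

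The named genes are the 10 genes and Sox9, in each related list the 3 with the highest mean and the 2 called genes with the largest change, and the nearest profiles of the 3 most abundant genes. Others are marked as chosen after their values were seen. The lists and thresholds, like the 10 genes, were chosen with earlier results of these data known. P-values set the group difference against the spread between 3 mice per group, which limma moderates with the variance of all genes tested. Without the variance trend the adjusted p from limma was 0.000186 for Sparcl1 and 0.0290 for Sparc. The value of 1 gene in the list of receptors and partners is not reported here.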

Additional observations from a re-analysis of the deposited data

How the results depend on the processing

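Of the 10 genes, 8 were called lower and 1 higher under each of the 17 alternatives except without a filter on low values, where 7 were lower because Sparc lost its call (adjusted p = 0.0544), and Sparcl1, Thbs1, Thbs2, Thbs3, Gpc4, Gpc5, Gpc6 and Chrdl1 kept direction and call under all of them. Leaving out 1 library at a time gave log2 fold changes from -1.01 to -0.60 for Sparc, from 2.15 to 2.40 for Thbs1 and from -1.23 to 0.075 for Thbs4. Thbs4, with at most 13 reads in a library, changed sign after quantile normalization (0.10), without KO replicate 1 (0.075) and without control replicate 3 (0.04), and it was not tested at a minimum mean of 10.

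The scaling moved the balance of all genes. Called genes were lower in KO in 56.4% of cases (5299 lower and 4090 higher), in 43.2% after quantile normalization, in 67.8% with each library at the same total and in 71.5% (2630 higher) at the same total without Rn45s, with the median of all genes shifted by 0.27, -0.23 and -0.31 on the log2 scale. Over the leave-one-out fits, 4943 to 5153 genes were lower and 3825 to 4048 higher. A fit with the replicate block called 8 of the 10 genes lower and 1 higher, and 5227 and 4048 of all genes. Its numbers share only a name, since deviations of same-numbered libraries correlated at -0.051, -0.013 and -0.013, and the replicate block changed no call of the 10 genes. After quantile normalization the relatives had 2 higher, the heparan sulfate enzymes 9 lower, the BMP genes 1 lower and the other factors 1 higher, and at the same total without Rn45s the heparan sulfate enzymes had 2 higher. The edgeR and DESeq2 fits on recovered reads called the 10 genes as limma did. Depth limits Thbs4 most, and the other 9 genes had at least 17 reads in every library.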
